A study of Mus musculus with 5 samples.

Results

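The 30 genes described here make cholesterol, move it out of the cell or store it as lipid, and they were read in 4 kinds of mouse brain cell before and after traumatic brain injury. They were found by their symbols among the 55450 genes of the count matrices, and each of the 30 had exactly 1 gene identifier. They comprise 17 genes of synthesis and its control and 13 genes of efflux, uptake, hydrolysis and storage. Cholesterol is built from acetyl-CoA through mevalonate, squalene and lanosterol, and the adult brain makes its own because lipoproteins of the blood hardly cross the blood-brain barrier. Astrocytes supply other cells with cholesterol on apolipoprotein particles, and oligodendrocytes build it into myelin. The transcription factors of the SREBP family switch the synthesis genes on when sterol in the endoplasmic reticulum is low. The liver X receptors, which sense oxysterols, switch on the exporters. Phagocytes that take up myelin debris must export its cholesterol, or esterify it and keep it in lipid droplets.

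The cells were dissociated from mouse cortex with papain, cleared of debris on a Percoll gradient and captured in droplets. All 5 libraries came from C57BL/6J mice, and none of the labels names a transgene, a drug or an age. Sham-operated cortex gave 1 library, and cortex taken 1, 3, 7 and 14 days after injury gave 1 library each. The titles name an injury site for the injured libraries and none for sham, and how many mice each library pools is not stated in the labels. Each group is 1 library, so nothing could be tested across replicates. Every ratio to sham compares 2 libraries rather than 2 conditions, all of them share the single sham library, and all intervals are 95% intervals that cover counting error only.

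The libraries held 11279455, 26705021, 41090570, 110205126 and 129161094 counts of unique molecular identifiers (UMIs) from sham to day 14. Precision follows the UMIs of a class rather than of its library, and these were fewest at day 14 for astrocyte-like cells (1873756, against 3264467 in sham) and at day 3 for oligodendrocyte-like cells (1290993, against 2256095 in sham). Per the labels, roughly 5188 to 11934 cells went into each capture, beside 9895 to 14159 barcodes in the files. After filters and removal of called doublets, 55321 of 60574 barcodes were kept. Any 2 libraries shared between 27 and 59 barcodes, at most 0.483% of the smaller one. Clusters were named by their marker genes with every lipid gene left out of the clustering, and the names mean likeness only. From sham to day 14 there were 4504, 3973, 2891, 4669 and 4179 microglia-like, 22, 85, 994, 890 and 1917 monocyte/macrophage-like, 4249, 4578, 2172, 3106 and 288 astrocyte-like, and 1268, 1281, 379, 1769 and 2045 oligodendrocyte-like cells. All 15 microglial, 20 astrocytic and 17 oligodendrocytic markers were detected in their own class in every library. The 22 macrophage-like cells in sham were under the minimum of 50, so that class was not set against sham. A level is given as UMIs of the gene per 1000000 UMIs of the class (CPM), and a gene counts as measured in a comparison where its mean level over both sides was at least 10 CPM.

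Levels are ranked here among the microglia-like, macrophage-like, astrocyte-like and oligodendrocyte-like classes only. In sham, where the macrophage-like class is too small, of the 17 synthesis members 13 were highest in astrocyte-like cells, 4 in oligodendrocyte-like cells and 0 in microglia-like cells, where all 17 were lowest. Summed over 16 members, leaving out the desaturase gene Scd2 with its many UMIs, the level in astrocyte-like cells was 3534 CPM in sham, then 3039, 1656, 967 and 1137 CPM at days 1, 3, 7 and 14. The same sum in oligodendrocyte-like cells was 2385 CPM in sham, then 2234, 1147, 1124 and 1289 CPM at days 1, 3, 7 and 14. In microglia-like cells it was 381 CPM in sham, then 342, 196, 193 and 143 CPM at days 1, 3, 7 and 14. Both macroglial sums were thus lower in the day 3, 7 and 14 libraries than in sham, and at day 7, among these classes, 13 members were highest in oligodendrocyte-like and 4 in astrocyte-like cells. The 13 efflux and storage genes summed to 1324 CPM in sham, then 2576, 2678, 2889.5 and 3231 CPM at days 1, 3, 7 and 14 in microglia-like cells, of which Npc2 alone gave 612 CPM in sham and 1668 CPM at day 14.

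**Figure D1:**
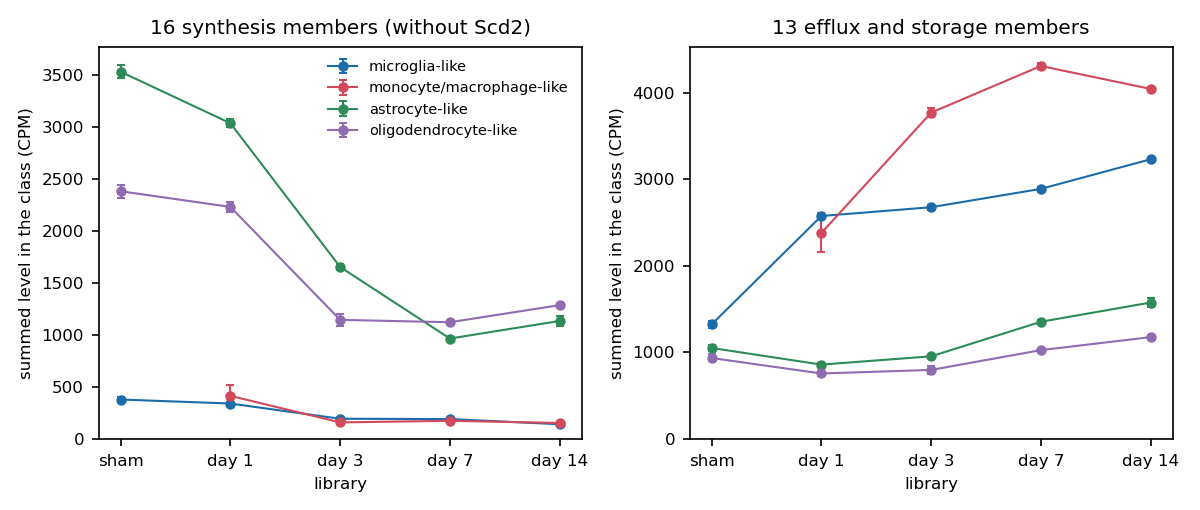
Summed levels of the 16 synthesis members without Scd2 (left) and of the 13 efflux and storage members (right), in CPM of the class total, by library and class, with 95% Poisson intervals; classes of under 50 cells are not drawn. The synthesis sum of astrocyte-like cells goes from 3534 CPM in sham to 967 CPM at day 7, while the efflux and storage sum of microglia-like cells goes from 1324 to 3231 CPM at day 14.

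Promoter sequence was available for 13 of the 17 synthesis genes, and it is shown because most of these members stood lower together after injury. The windows come from RefSeq on GRCm38.p6 and hold 250 bases before and 50 bases after the annotated start. The letters CCAAT, the box bound by the factor NF-Y that works beside SREBP, were searched on both strands, as was the sterol response element TCACNCCAC. CCAAT was found for all 13 synthesis genes, in at least 1 start site where a gene has several, while 37.4% of all 32851 promoter windows hold it. Dhcr7 has it in 1 of 3 windows and Srebf1 in 2 of 3. Both motifs are counted per gene among members but per window among all promoters, and no share per gene was computed. Of the 9 efflux and storage genes with a window, 5 hold CCAAT (Soat1, Npc2, Lipa, Plin2 and Pltp). TCACNCCAC was found for Hmgcs1 alone among the 22 members with a window, against 1.24% of all windows. A match is a run of letters and not a measured site. The stretches below lie before the RefSeq start site and read 5′ to 3′ on the gene's strand, with both motifs in capitals (ATTGG is CCAAT on the other strand). The GENCODE genes of Idi1, Cyp51 and Msmo1 start further upstream, so their stretches lie within those gene bounds.
Hmgcs1 (chr13:119690101-119690325, forward strand): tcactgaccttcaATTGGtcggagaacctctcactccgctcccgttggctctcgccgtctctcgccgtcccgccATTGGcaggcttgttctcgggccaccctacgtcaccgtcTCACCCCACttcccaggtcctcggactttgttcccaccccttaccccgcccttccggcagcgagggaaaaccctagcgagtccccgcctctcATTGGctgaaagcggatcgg
Idi1 (chr13:8885546-8885605, forward strand): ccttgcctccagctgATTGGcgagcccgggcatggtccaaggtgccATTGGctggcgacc
Cyp51 (chr5:4104707-4104741, reverse strand): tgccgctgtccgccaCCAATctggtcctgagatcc
Msmo1 (chr8:64733614-64733753, reverse strand): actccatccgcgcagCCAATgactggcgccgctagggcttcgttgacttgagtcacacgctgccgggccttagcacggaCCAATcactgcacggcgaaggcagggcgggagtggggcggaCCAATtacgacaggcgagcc
Insig1 (chr5:28071181-28071215, forward strand): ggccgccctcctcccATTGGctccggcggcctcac
Hmgcs1 and Msmo1 hold 3 CCAAT boxes in these stretches and Idi1 holds 2. Fdps, Fdft1, Sqle and Scd2 have no entry.

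In astrocyte-like cells nearly all synthesis genes stood lower from day 3 on, and Srebf1 was the exception. The median log2 ratio to sham over the 17 members, all of them measured, was -0.52, -1.22, -2.15 and -1.47 at days 1, 3, 7 and 14, where the median over all measured genes was -0.06, -0.12, -0.14 and 0.12. At day 1, 7 members stood at least 2-fold lower and 0 at least 2-fold higher, against 14.0% and 12.4% of all 9229 measured genes. Mvk was measured at day 1 through sham alone, so its place among the lower members was fixed by the filter. At day 3, 11 stood lower and 0 higher, against 14.8% and 9.71%. At day 7, 16 of 17 stood lower and 0 higher, against 10.3% and 5.63%. At day 14, 14 stood lower and 0 higher, against 8.90% and 15.6%. The day 14 class is small, at 288 cells.

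Among the early, mevalonate steps in these cells, Hmgcs1, which makes HMG-CoA, stood at 320.1 CPM in sham, then 250.4, 132, 118 and 132 CPM at days 1, 3, 7 and 14. Idi1, the isomerase of the isoprene unit, stood at 227 CPM in sham, then 158, 59.6, 30.2 and 36.3 CPM at days 1, 3, 7 and 14. Sham had the highest level of both, and the log2 ratios of Idi1 were -0.52, -1.93, -2.91 and -2.64. The kinase gene Mvk went to 6.06 CPM at day 1 from 40.7 CPM in sham and was back at 27.5 CPM at day 3, so its lowest library differed from that of Idi1. Mvd, the decarboxylase of a later step, had log2 ratios of -1.78, -2.51, -2.59 and -1.67. Fdps, farnesyl diphosphate synthase, had -1.80, -1.22, -2.32 and -1.25, nearest to sham at days 3 and 14.

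The squalene and lanosterol steps showed 2 time courses. Fdft1, squalene synthase, stood at 273 CPM in sham, then 139, 69.8, 41.1 and 62.4 CPM at days 1, 3, 7 and 14. Cyp51, the lanosterol demethylase, stood at 222 CPM in sham, then 172, 64.4, 49.8 and 45.4 CPM at days 1, 3, 7 and 14. Each was lower in all 4 injured libraries, with the day 1 level between those of sham and day 3. Msmo1 (ENSMUSG00000031604, chr8:64718139-64733792, reverse strand), which oxidises methyl groups of the sterol ring, instead stood at 1104 CPM in sham, then 1285, 616, 134 and 212 CPM at days 1, 3, 7 and 14. Its day 1 level lay above sham (log2 ratio 0.22, interval 0.16 to 0.27) and its day 7 level far below (log2 ratio -3.04, interval -3.12 to -2.97). Sqle, squalene epoxidase, shared that order, with 138 CPM in sham, then 156, 82.8, 53.6 and 64.6 CPM at days 1, 3, 7 and 14. Lss, lanosterol synthase, had log2 ratios of -1.29, -1.65, -2.15 and -2.09.

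Dhcr7, the reductase of the final step, stood at 163 CPM in sham, then 130.2, 34.9, 17.7 and 28.3 CPM at days 1, 3, 7 and 14. Its lowest level was at day 7, as for Msmo1. Nsdhl, which helps remove methyl groups of the sterol ring, and Sc5d, which acts just before Dhcr7, had log2 ratios of -1.68, -1.24, -1.65 and -1.47 and of -0.05, -0.73, -1.54 and -1.11. Insig1 (ENSMUSG00000045294, chr5:28071363-28078662, forward strand), which holds the SREBP escort protein in the endoplasmic reticulum and is itself a target of SREBP, stood at 240.2 CPM in sham, then 226, 112, 23.8 and 49.6 CPM at days 1, 3, 7 and 14. The levels of sham and day 1 were close, and the day 7 level gave the lowest ratio of the list, -3.34 (interval -3.51 to -3.17).

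The 2 SREBP genes parted. Srebf2, whose product chiefly drives cholesterol genes, stood at 183 CPM in sham, then 197, 107, 81.7 and 96.1 CPM at days 1, 3, 7 and 14 in astrocyte-like cells, lower from day 3 on. Srebf1, whose product chiefly drives fatty acid genes, stood at 157 CPM in sham, then 71.4, 151, 276 and 209.7 CPM at days 1, 3, 7 and 14. It was lowest at day 1 and above sham at days 7 and 14, with log2 ratios of 0.81 (interval 0.68 to 0.94) and 0.41 (interval 0.22 to 0.61), the only synthesis member above sham there. Scd2, which puts a double bond into fatty acids, stood at 2339 CPM in sham, then 1096, 1092, 1121 and 1359 CPM at days 1, 3, 7 and 14. Scd2 was therefore near one level in all 4 injured libraries, and Srebf1 did not share it.

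**Figure D2:**
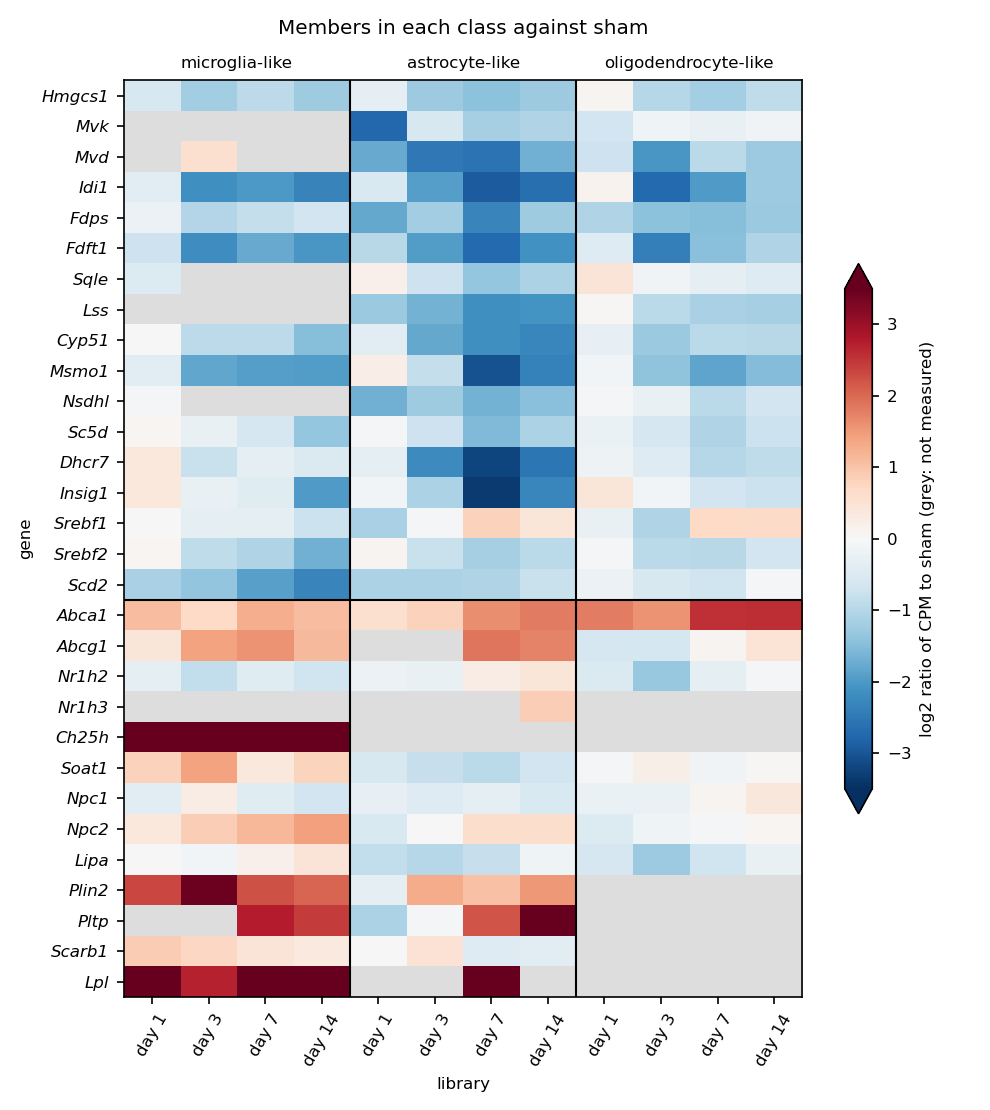
Log2 ratio of CPM to sham for the 30 members (rows, synthesis above the black line, efflux and storage below) in 3 classes and 4 libraries (columns), blue for lower and red for higher than sham; grey cells are under a mean of 10 CPM, and colours are capped at 3.5 in either direction, which Ch25h, Lpl and Pltp exceed. The synthesis rows are mostly blue, darkest in astrocyte-like cells at day 7 (Insig1 at -3.34), while Srebf1 is red there at days 7 and 14.

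The main clusters of astrocyte-like cells were 5 and 7 in sham, 6 at day 1, 9 at day 3, 12 and 17 at day 7, and again 12 at day 14, with 142 of 288 cells. Cluster 17 held 1551 day 7 cells with a median of 878.5 UMIs, against 7174 for the kept cells of that library. Without it the day 7 synthesis median was -2.02, and the single ratios of Insig1, Dhcr7 and Msmo1 were -3.29, -3.12 and -2.87. Cluster 7, led by the transporter genes Slc4a4 and Slc6a11, held 2142 sham, 1086 day 1, 67 day 3 and 52 day 14 cells. Its median over all cells was 755 UMIs, against 1707, 3209 and 8534 for the kept cells of days 1, 3 and 14. Whether it holds one kind of cell across the libraries, or cells of low depth, was not tested. In cluster 7 Hmgcs1 stood at 229.5, 87.8, 89.1 and 244 CPM, so that the 52 day 14 cells were near sham. Msmo1 stood at 957, 603, 436 and 625 CPM there, lower in each injured library. In cluster 12, the other main cluster of day 7, Msmo1 stood at 153 CPM and Hmgcs1 at 129 CPM. The day 1 level of Msmo1 rested on cluster 6, at 1464 CPM.

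Thinned to 500 UMIs per cell, 39.4% of astrocyte-like cells had an Msmo1 UMI in sham (exact binomial interval 38.0 to 40.9), 42.1% at day 1, 26.8% at day 3, 5.05% at day 7 (4.31 to 5.88) and 11.5% at day 14. Unthinned, the shares were 51.8%, 72.5%, 78.1%, 32.1% and 46.9%. The thinned share of microglia-like cells, which should make little of it, was 4.06% in sham and 1.05% at day 7, so the day 7 astrocyte-like share remained above that background.

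In oligodendrocyte-like cells the synthesis genes also stood lower from day 3 on, and whether the 2 macroglial classes differ in this was not tested. The median log2 ratio across the 17 members, all measured, was -0.18, -0.95, -0.98 and -0.89 at days 1, 3, 7 and 14, beside 0.02, -0.15, -0.06 and 0.05 over all measured genes. Only 1 member stood at least 2-fold lower at day 1 and 0 higher, against 4.98% and 6.49% of 8216 genes. At day 3 the counts were 8 and 0, against 14.7% and 9.92%. Mvd was measured at day 3 through sham alone, so that it stood lower was fixed by the filter. At day 7 they were 7 and 0, against 5.47% and 5.16%, and at day 14, 6 and 0, against 3.79% and 3.92%. The 379 cells of day 3 make its ratios the least precise.

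Hmgcs1 stood at 527 CPM in sham, then 558, 263, 229 and 283 CPM at days 1, 3, 7 and 14 in oligodendrocyte-like cells, with sham and day 1 high and the other 3 libraries low. Idi1 stood at 179.5 CPM in sham, then 195, 27.1, 45.6 and 74.8 CPM at days 1, 3, 7 and 14, and its lowest library was day 3 rather than day 7. Fdft1 was likewise lowest at day 3, with 151 CPM in sham, then 111, 28.7, 54.9 and 73.1 CPM at days 1, 3, 7 and 14. Msmo1 stood at 341 CPM in sham, then 318, 129, 95 and 119 CPM at days 1, 3, 7 and 14 and had the lowest ratios of the late sterol steps, -1.84 at day 7 and -1.52 at day 14. Fdps, at log2 ratios of -1.05, -1.44, -1.48 and -1.29, was the one member at least 2-fold lower at day 1. Cyp51 had -0.30, -1.30, -0.95 and -0.96, and Mvd, from 28.8 CPM in sham, had -0.73, -2.05, -0.94 and -1.27. Lss, Sc5d and Dhcr7 ended between -1.17 and -0.74 at day 14.

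Other oligodendrocytic members lay nearer to sham. Sqle had log2 ratios of 0.44, -0.13, -0.32 and -0.45 and Mvk -0.68, -0.16, -0.27 and -0.11. Nsdhl had -0.03, -0.26, -0.96 and -0.68, lower at days 7 and 14 only. Insig1 stood at 124 CPM in sham, then 165, 116, 78.3 and 74.1 CPM at days 1, 3, 7 and 14, above sham at day 1 and below it from day 7 on. Scd2, the desaturase, stood at 4198 CPM in sham, then 3632, 2825, 2575 and 4088 CPM at days 1, 3, 7 and 14. At day 14 the log2 ratio of Scd2 was -0.04, while that of Hmgcs1 was -0.89. Srebf1 again stood apart, with 67.8 CPM in sham, then 56.3, 32.5, 111 and 109 CPM at days 1, 3, 7 and 14, lowest at day 3 and above sham at days 7 and 14 as in astrocyte-like cells. Srebf2 stood at 152 CPM in sham, then 146, 79.8, 77.1 and 95.6 CPM at days 1, 3, 7 and 14. Sham, day 1 and day 3 cells lay mainly in cluster 8, day 7 cells in cluster 11 and day 14 cells in cluster 27. Within cluster 8, Idi1 was at 181 CPM in sham, 189 CPM at day 1 and 26.2 CPM at day 3. Scd2 stood there at 4198 CPM in sham and 2680 CPM (interval 2469 to 2904) in its 107 day 14 cells. The day 14 class level of Scd2 thus rested on cluster 27, at 4117 CPM. Over all its cells cluster 8 had a median of 1911.5 UMIs, against 9141 in cluster 27. Its 107 day 14 cells also had Plin2 at 62.8 CPM, against 10.2 CPM in the day 14 cells of cluster 27. The 2 clusters may thus differ in depth and make-up, and the part of either was not tested.

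Microglia-like cells held little synthesis message, and its differences from sham cannot be told apart from RNA of other cells. Their median log2 ratio was -0.14, -0.91, -0.91 and -1.59 at days 1, 3, 7 and 14, over 14, 13, 12 and 12 measured members, beside -0.06, -0.29, -0.31 and -0.51 over all genes. Only 1 member stood at least 2-fold lower at day 1 and 0 higher, against 10.4% and 7.88% of 8730 genes. At days 3, 7 and 14 the members lower were 6, 5 and 9, against 21.0%, 12.6% and 23.6% of all genes, and 0 stood higher on each of those days, against 9.32%, 4.41% and 5.19%. Of the lower members, Idi1 and Fdft1 on each of those days and Fdps at day 3 were measured only through sham. So were Cyp51, Sc5d and Insig1 at day 14. That these members stood lower was fixed by the filter. Msmo1 was at 79.1 CPM in sham, then 61.6, 22.4, 20.8 and 20.5 CPM at days 1, 3, 7 and 14. Hmgcs1 was at 40.6 CPM in sham, then 27.8, 17.5, 21.7 and 17.2 CPM at days 1, 3, 7 and 14. These sham levels are 7.16% and 12.7% of those in astrocyte-like cells of the same library.

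The astrocyte markers were found in microglia-like cells at a median of 5.15%, 3.80%, 2.05%, 2.28% and 0.177% of their astrocyte-like level from sham to day 14. Oligodendrocytic markers were found there at 3.35%, 1.55%, 0.243%, 1.51% and 0.606%. This share is called carry-over here, and its source was not tested. It was largest in sham, the library with the fewest UMIs, and smallest for astrocytic markers at day 14. Astrocyte-like cells made up 40.32%, 38.88%, 22.85%, 25.97% and 2.495% of kept cells from sham to day 14. The libraries thus had the same order in this share as in astrocytic carry-over. Oligodendrocyte-like cells made up 12.03%, 10.88%, 3.99%, 14.79% and 17.72%, an order that oligodendrocytic carry-over did not share. After subtraction of the carry-over, an alternative chosen after seeing the data, the synthesis medians of microglia-like cells were 0.81, 0.36, 0.64 and 0.65, all 4 on the other side of 0. At the lower quartile of the markers they were 0.53, 0.14, 0.21 and -0.068. Msmo1 came to 10.9 CPM in sham and 19.4 CPM at day 14 after subtraction, with log2 ratios of 0.58 at day 7 and 0.84 at day 14. The same subtraction gave -0.52, -1.15, -2.21 and -1.51 in astrocyte-like cells and -0.17, -0.91, -0.90 and -0.71 in oligodendrocyte-like cells, close to their values before it. Scd2 was at 434 CPM in sham, then 197, 168, 116 and 88.0 CPM at days 1, 3, 7 and 14 in microglia-like cells, and less the carry-over at 173 CPM in sham and 60.8 CPM at day 14. In macrophage-like cells the synthesis genes summed to 416, 160.5, 176 and 155 CPM without Scd2 at days 1, 3, 7 and 14, the first of these from 85 cells.

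**Figure D3:**
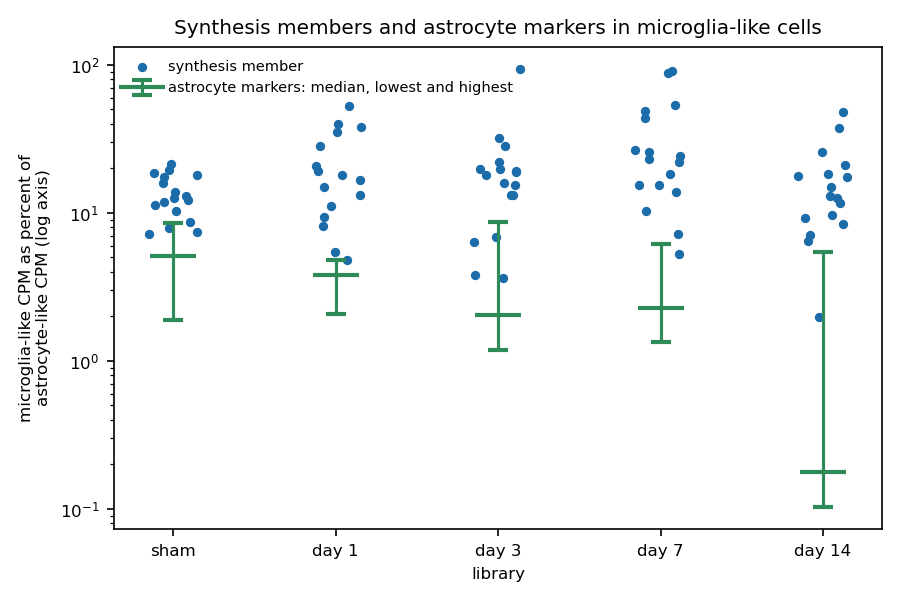
Level in microglia-like cells as a percent of the level in astrocyte-like cells of the same library (log axis), for the synthesis members (blue points) and for astrocyte markers (green: median, lowest and highest). In sham the marker median is 5.15% and the lowest member, Msmo1, lies at 7.16%, while at day 14 the marker median is 0.177% and the lowest member, Sqle, lies at 1.99%.

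The export and storage genes of microglia-like cells stood higher after injury. Their median log2 ratio, over the measured members, was 0.80, 0.86, 1.22 and 1.11 at days 1, 3, 7 and 14, and 0.95, 0.91, 1.25 and 1.18 less the carry-over, on the same side of 0. Of 11 measured members, 4 stood at least 2-fold higher at day 1 and 0 lower. The counts higher were 5 of 11 at day 3, 7 of 12 at day 7 and 7 of 12 at day 14, with 0 lower on each, beside the shares of all genes given above for these cells. Most cells lay in clusters 0, 1, 3, 18 and 4 from sham to day 14, so the clusters compared differ as the libraries do. Ch25h and Pltp were measured only through the injured side, so their place in these counts was fixed by the filter. With every member of at least 1 UMI on both sides, the day 1 median was 0.41. Immediate early and heat shock genes, 19 genes that dissociation can switch on, summed to 36772, 19768, 14723, 13309.6 and 8168 CPM in these cells from sham to day 14. They summed to 2126, 4034, 1908, 1674 and 2393 CPM in astrocyte-like cells and 3988, 3119, 3219, 2922 and 3339.7 CPM in oligodendrocyte-like cells. Their part in the ratios of any class was not tested.

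Lpl (ENSMUSG00000015568, chr8:68880491-68907448, forward strand), lipoprotein lipase, which frees fatty acids from lipoproteins, stood at 14.9 CPM in sham, then 592, 97.2, 205 and 337 CPM at days 1, 3, 7 and 14. It was lowest in sham, highest at day 1 and low again at day 3, and the log2 ratios were 5.31, 2.71, 3.78 and 4.50. At day 1 the exact Poisson interval was 576 to 609 CPM against 11.2 to 19.4 CPM in sham. Ch25h (ENSMUSG00000050370, chr19:34473778-34475164, reverse strand), whose product turns cholesterol into a hydroxylated oxysterol, stood at 1.08 CPM in sham, then 72.5, 19.0, 21.7 and 40.1 CPM at days 1, 3, 7 and 14. Its sham level rested on 4 UMIs, which gives the day 1 log2 ratio of 6.06 an interval of 4.70 to 7.94. Ch25h shared with Lpl the high at day 1, the low at day 3 and the later high at day 14. Plin2 (ENSMUSG00000028494, chr4:86648386-86670060, reverse strand), a coat protein of lipid droplets, stood at 34.7 CPM in sham, then 175, 374, 161 and 141 CPM at days 1, 3, 7 and 14. Its high was at day 3, where the log2 ratio was 3.43 (interval 3.18 to 3.70).

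Abca1 (ENSMUSG00000015243, chr4:53030787-53159895, reverse strand), the exporter that loads cholesterol on apolipoproteins, stood at 201 CPM in sham, then 426, 326, 488 and 426 CPM at days 1, 3, 7 and 14. Every injured library was above sham, with day 7 highest. Abcg1, the exporter to mature lipoprotein particles, stood at 78.8 CPM in sham, then 105, 209, 235 and 174 CPM at days 1, 3, 7 and 14, and its order differed, with day 1 nearest to sham. Npc2, which carries cholesterol out of the lysosome with Npc1, stood at 612 CPM in sham, then 788, 1109.6, 1369 and 1668 CPM at days 1, 3, 7 and 14. Npc2 was higher in each later library, whereas its partner Npc1 stood at 128 CPM in sham, then 96.5, 154, 95.7 and 80.4 CPM at days 1, 3, 7 and 14, with the day 3 level above and the others below sham. Soat1, which esterifies cholesterol for storage, stood at 90.0 CPM in sham, then 156, 238, 116 and 154 CPM at days 1, 3, 7 and 14, highest at day 3 like Plin2.

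The remaining members were low or level in microglia-like cells. Lipa, the lysosomal acid lipase, had log2 ratios of 0.02, -0.09, 0.18 and 0.46. Scarb1, a receptor for high-density lipoprotein, was at most 26.1 CPM, at day 1. Pltp, phospholipid transfer protein, was at 4.61 CPM in sham, then 2.0, 8.98, 30.9 and 25.2 CPM at days 1, 3, 7 and 14. Of the liver X receptors, Nr1h2 had log2 ratios of -0.35, -0.87, -0.43 and -0.69, below sham throughout, and Nr1h3 stayed between 0.499 and 1.42 CPM. Neither receptor's own message stood above sham in the way Abca1 did.

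**Figure D4:**
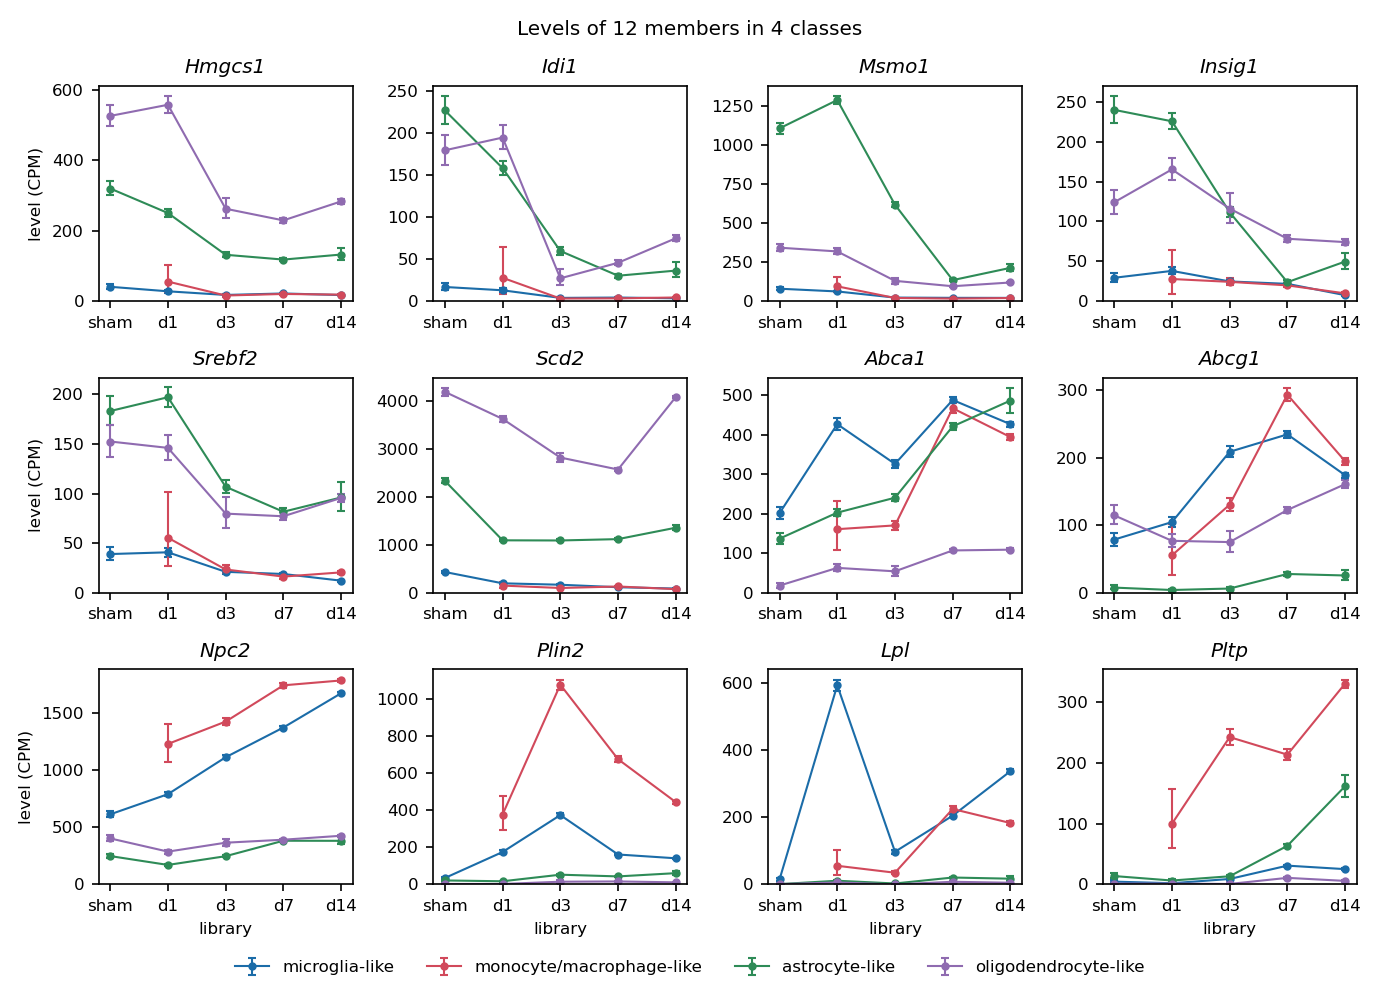
Levels of 12 members in CPM of the class total, by library and class, with 95% Poisson intervals; classes of under 50 cells are not drawn, and each panel has its own axis from 0. Lpl of microglia-like cells has its high at day 1 (592 CPM), Plin2 of macrophage-like cells at day 3 (1077 CPM), and Msmo1 of astrocyte-like cells goes from 1104 CPM in sham to 134 CPM at day 7.

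Clusters within the microglia-like class differed in these genes. Cluster 33, led by Cst7, Cxcl13 and Spp1 and found at day 14, had Lpl at 479 CPM, Ch25h at 77.2 CPM and Npc2 at 2059.5 CPM. Cluster 4, which held most day 14 cells, had 276, 26.4 and 1543 CPM for these. Abca1 had the opposite order, at 327 CPM in cluster 33 and 470.1 CPM in cluster 4. At day 1 the 593 cells placed in the main sham cluster, 0, had Lpl at 255 CPM and Ch25h at 5.34 CPM, against 652 and 80.3 CPM in cluster 1, which held most day 1 cells. Over all their cells, clusters 0 and 1 had medians of 760 and 1854.5 UMIs, and the part of depth in this placing was not tested. Cluster 2, led by interferon-response genes, had the highest Plin2 among the microglia-like clusters of at least 50 cells at day 3, 523 CPM against 371 CPM in cluster 3, and again at day 7, 258 CPM against 143 CPM in cluster 18. At day 14 the dividing cluster 23 had 264 CPM against 141 CPM in cluster 4. These are values of single libraries, and the cells of a cluster are not replicates.

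Thinned to 500 UMIs per cell, 0.577% of microglia-like cells had an Lpl UMI in sham, 19.0% at day 1 (exact binomial interval 17.8 to 20.3), 3.25% at day 3, 6.21% at day 7 and 9.45% at day 14. Unthinned, the shares were 1.09%, 44.4%, 16.5%, 37.3% and 42.4%. In oligodendrocyte-like cells the thinned share was at most 0.396%, at day 7. For Plin2 the thinned microglial shares were 1.71%, 7.20%, 13.5%, 6.19% and 5.93%, highest at day 3 as for the level.

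Macrophage-like cells were set against microglia-like cells of the same library. Their median UMIs per cell were higher, at 5114 against 3380 at day 3, 12347.5 against 7358 at day 7 and 13675 against 9051 at day 14. The efflux and storage median was -0.39, 0.09, 0.34 and 0.22 at days 1, 3, 7 and 14 over 12 measured members each time, beside -0.16, -0.25, -0.24 and -0.05 over all genes. At day 1, with 85 macrophage-like cells, 2 members stood at least 2-fold higher and 2 lower, against 12.7% and 19.6% of 8384 genes. At day 3 the counts were 3 and 2, against 5.62% and 18.5%. At day 7 they were 3 and 0, against 3.87% and 7.67%, and at day 14 3 and 1, against 5.72% and 5.08%. Of 11 synthesis members measured at day 1, 2 stood at least 2-fold higher and 1 lower, with a median of 0.56. At days 3, 7 and 14, 0 of 9, 10 and 7 measured members stood at least 2-fold apart.

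Plin2 in macrophage-like cells was at 377, 1077, 675 and 444 CPM at days 1, 3, 7 and 14, above the microglia-like level in each library, by log2 ratios of 1.11, 1.53, 2.06 and 1.65. Pltp was at 99.8, 243, 214 and 331 CPM at days 1, 3, 7 and 14 with log2 ratios of 5.64, 4.75, 2.79 and 3.71, and at days 1 and 3 it was measured through the macrophage-like side alone. Lipa was at 77.7, 242, 265 and 328 CPM at days 1, 3, 7 and 14, below microglia-like cells at day 1 and above them later, with ratios of -0.40, 1.35, 1.21 and 1.24. Nr1h3, a liver X receptor, was under the measured minimum but reached 12.9 CPM at day 14 against 1.18 CPM in microglia-like cells. Its day 14 level was higher still in astrocyte-like cells, at 16.01 CPM, and in cells named endothelial, at 17.35 CPM. On the other side, Lpl was at 55.5, 34.8, 225 and 183 CPM at days 1, 3, 7 and 14, lower than in microglia-like cells at days 1, 3 and 14 by log2 ratios of -3.42, -1.48 and -0.88. Ch25h had -2.28, -0.52 and -1.62 at days 3, 7 and 14, and at day 3 it was measured through the microglia-like side alone. Abca1 was at 161, 170.4, 467 and 394 CPM at days 1, 3, 7 and 14, lower than in microglia-like cells at days 1 and 3 and close to them afterwards. Soat1, Npc1, Npc2, Abcg1, Nr1h2 and Scarb1 lay within 2-fold in the 4 libraries.

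**Figure D5:**
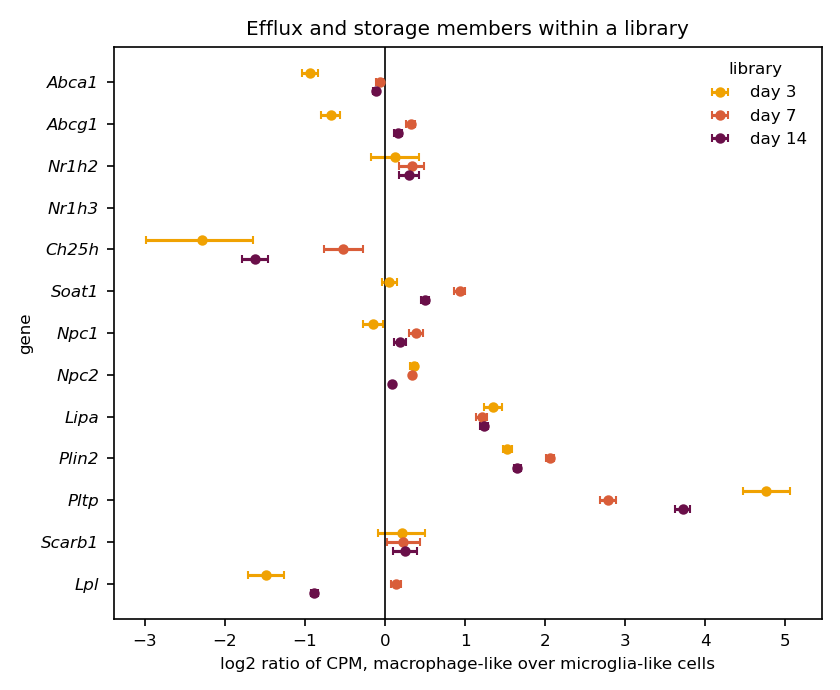
Log2 ratio of CPM in macrophage-like over microglia-like cells of the same library for the efflux and storage members at days 3, 7 and 14, with 95% exact conditional intervals; Nr1h3 is under a mean of 10 CPM and not drawn. Pltp, Plin2 and Lipa lie right of 0 in all 3 libraries, Ch25h lies left of it, and Lpl lies left at days 3 and 14.

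Which macrophage-like cluster dominated changed with time, and the members differed between clusters. Cluster 28, led by Pf4 and Arg1, held 719 of the day 3 cells and had Plin2 at 1289 CPM. Cluster 22, led by Ccl8, Ms4a7 and Gpnmb, held 658 of the day 7 cells and had Plin2 at 729 CPM, Lipa at 286 CPM and Abca1 at 507 CPM. Cluster 26, led by class II antigen genes, held 222 day 7 cells and had 182, 77.1 and 116 CPM for the same genes. In cluster 26, Plin2 was therefore near and Lipa below the microglia-like level of day 7, and both class ratios of that day rested on cluster 22. Pltp was above microglia-like cells in both clusters, at 220.0 and 141 CPM. At day 14 the 2 clusters had Plin2 at 569.5 and 216 CPM and Lpl at 255 and 46.6 CPM. In the macrophage-like class the 18 macrophage markers summed to 6883, 1494 and 3287 CPM at days 3, 7 and 14, and the 15 microglial markers to 2204, 8801 and 5840.4 CPM. The microglial sum was thus the larger at days 7 and 14, so the class label is weak in both libraries and weakest at day 7. In microglia-like cells the macrophage markers summed to 258, 132 and 325 CPM.

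Of the exporters, Abca1 stood higher after injury in both macroglial classes. In astrocyte-like cells it was at 137 CPM in sham, then 203, 240.4, 421 and 486 CPM at days 1, 3, 7 and 14, each library higher than the one before, with the log2 ratios 0.57, 0.81, 1.62 and 1.83. In oligodendrocyte-like cells it was at 18.2 CPM in sham, then 62.9, 54.2, 107 and 109 CPM at days 1, 3, 7 and 14. The oligodendrocytic log2 ratios were 1.79, 1.58, 2.56 and 2.58. Less the carry-over of myeloid RNA, Abca1 in oligodendrocyte-like cells was 6.92 CPM in sham and 91.6 CPM at day 14, and in astrocyte-like cells 127 and 444 CPM. Pltp in astrocyte-like cells was at 13.8 CPM in sham, then 6.43, 13.4, 63.6 and 162 CPM at days 1, 3, 7 and 14, high at days 7 and 14 only. Without cluster 17 the day 7 level of Pltp was 62.8 CPM and that of Abca1 439 CPM.

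The astrocytic medians of the list were -0.33, -0.04, 0.62 and 0.62 at days 1, 3, 7 and 14 over 9, 9, 11 and 11 measured members. At least 2-fold higher were 0, 1, 5 and 4 members, against 12.4%, 9.71%, 5.63% and 15.6% of all measured genes. At day 1 1 stood lower, against 14.0%, and 0 later. Abcg1 at days 7 and 14 and Lpl at day 7 were measured only through the injured side, so their place among the higher members was fixed by the filter. Myeloid markers were found in astrocyte-like cells at a median of 4.65%, 2.11%, 4.09%, 13.6% and 9.16% of their myeloid level from sham to day 14, the most at day 7. The day 7 levels of Abcg1 (27.8 CPM) and Lpl (20.6 CPM) came to under 0 after subtraction of that share. Subtracted levels under 3 UMIs of the class were set to 3 UMIs, which is 0.919 CPM in sham and 0.157 CPM at day 7. Both genes lay at this floor on both sides, so their ratios follow the class totals, and with them the day 7 median came to -0.86. Without cluster 17 and before subtraction the day 7 median was 0.21, with Abcg1 at 14.9 CPM and Lpl at 8.25 CPM. Plin2 was at 21.4 CPM in sham, then 17.1, 52.6, 43.3 and 60.8 CPM at days 1, 3, 7 and 14, of which 27.9 CPM remained at day 3 and 4.95 CPM at day 7. Soat1 stood at 383 CPM in sham, then 259, 218, 199 and 239 CPM at days 1, 3, 7 and 14, lower in all 4 injured libraries. Npc1 had log2 ratios of -0.29, -0.46, -0.31 and -0.52. Lipa had -0.86, -0.99, -0.79 and -0.16, and less the carry-over it was at 35.8 CPM in sham, 3.15 CPM at day 7 and 16.3 CPM at day 14, a wider difference than before subtraction.

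In oligodendrocyte-like cells only 7 of the 13 were measured, with medians of -0.49, -0.22, -0.04 and 0.08. Abca1 was the 1 member at least 2-fold higher in each library, against 6.49%, 9.92%, 5.16% and 3.92% of all measured genes. Lower stood 2 at day 3, against 14.7% (Lipa at -1.27 and Nr1h2 at -1.34). Abcg1 stood at 115 CPM in sham, then 77.0, 75.1, 123 and 161 CPM at days 1, 3, 7 and 14, lowest at days 1 and 3. Npc1 stood at 248 CPM in sham, then 213, 212, 263 and 326 CPM at days 1, 3, 7 and 14, and its level was highest at day 14. That high rested on cluster 27, at 328 CPM, while the 107 day 14 cells of cluster 8, the cluster of lower median UMIs, had 175 CPM. Soat1 was between 21.7 and 27.1 CPM in every library, of which 4.21 CPM in sham and 8.04, 10.6, 8.63 and 16.7 CPM at days 1, 3, 7 and 14 remained after subtraction.

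Other genes of the same pathways were read from lists beside the 30. Of 11 other sterol and SREBP genes measured in astrocyte-like cells, 2, 2, 4 and 4 stood at least 2-fold lower at days 1, 3, 7 and 14 and 0 higher, against 14.0%, 14.8%, 10.3% and 8.90% of all genes lower, so the first 2 counts are near the background. Hsd17b7, a late sterol reductase, was at 61.9 CPM in sham, then 52.6, 41.2, 8.58 and 14.4 CPM at days 1, 3, 7 and 14, and Acat2, which joins the first acetyl units, at 55.8 CPM in sham, then 44.6, 21.9, 15 and 18.1 CPM at days 1, 3, 7 and 14. Of 9 fatty acid synthesis genes, 5, 3, 3 and 3 stood lower and 0 higher in these cells, against the same shares. The fatty acid elongase gene Elovl6 was at 88.2 CPM in sham, then 26.8, 19.9, 14.1 and 13.9 CPM at days 1, 3, 7 and 14, and the desaturase gene Fads2 at 702 CPM in sham, then 184, 159, 373 and 327 CPM at days 1, 3, 7 and 14. Elovl6 stayed low while Fads2 was low at days 1 and 3 and less so later. Acss2, which makes acetyl-CoA from acetate, was at 134 CPM in sham, then 66.3, 49.2, 41.5 and 42.2 CPM at days 1, 3, 7 and 14. The fatty acid chaperone gene Fabp5 had a log2 ratio of -1.31 at day 1. Mgll, the monoglyceride lipase gene, had the 1 ratio of at least 2-fold higher among the 15 measured of 21 other export, uptake and storage genes, 1.29 at day 7, against 5.63% of all genes. In that list 5, 2, 1 and 0 stood lower at days 1, 3, 7 and 14.

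In oligodendrocyte-like cells Elovl6 was at 148 CPM in sham, then 154, 23.2, 123 and 150.5 CPM at days 1, 3, 7 and 14. The lipid droplet lipase gene Pnpla2 was at 36.8 CPM in sham, then 43.9, 287, 42.3 and 38.1 CPM at days 1, 3, 7 and 14 and Acaca, acetyl-CoA carboxylase, at 73.1 CPM in sham, then 109, 276, 118 and 129 CPM at days 1, 3, 7 and 14. Pnpla2 and Acaca were high at day 3 alone, the library with the fewest oligodendrocyte-like cells. Pmvk, a mevalonate kinase step, was at 99.7 CPM in sham, then 46.9, 39.5, 60.6 and 63.6 CPM at days 1, 3, 7 and 14, and Plin3, another droplet coat, had a log2 ratio of -1.45 at day 1. Hsd17b7 and Nceh1, a cholesteryl ester hydrolase, had 1.23 and 1.18 at day 1, and Nceh1 1.01 at day 14.

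In microglia-like cells Fabp5 was at 66.1 CPM in sham, then 77.0, 142, 162 and 475 CPM at days 1, 3, 7 and 14. Nceh1 was at 7.32 CPM in sham, then 29.1, 47.0, 45.6 and 55.8 CPM at days 1, 3, 7 and 14, and both were highest at day 14. Mgll was at 70.2 CPM in sham, then 22.1, 34.5, 51.7 and 19.6 CPM at days 1, 3, 7 and 14, lower than sham in each library. Fads1, another desaturase gene, had log2 ratios of -1.45 at day 3 and -1.66 at day 14, and Rxrb, a partner receptor of the liver X receptors, -1.10 at day 14.

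Some uptake and storage genes outside the 30 stood higher in macrophage-like than in microglia-like cells, as Plin2 did. Fabp5 was at 2488, 2059 and 2266 CPM in macrophage-like cells at days 3, 7 and 14, with log2 ratios of 4.13, 3.67 and 2.25. Hilpda, which inhibits the droplet lipase, had 3.07, 3.26 and 2.22 at days 1, 3 and 7. Cd36, a scavenger receptor, had 2.55 and 3.14 at days 1 and 3, and Nceh1 had 1.40 at day 7. Lower in macrophage-like cells were Mylip, which degrades lipoprotein receptors, at -3.94 and -1.17 at days 1 and 3, and Mgll, at -1.01 at day 7. Lpcat3, which remodels phospholipids, rested on 1 UMI in the 85 cells of day 1, and its log2 ratio of -3.86 has an interval of -9.17 to -1.38.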

How the data were processed

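Single-cell suspensions of 5 mouse cortex samples were read with a 3′ droplet kit, per the labels' protocols. The deposited files hold raw UMI counts per gene and barcode, made with Cell Ranger 4.0.0 per the file headers. STAR 2.5.37, Seurat 3.2.0 and the build GRCm38 (mm10) are named in the submitters' processing notes with no stated role. No sample had a replicate.

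Kept barcodes had no more than 20% mitochondrial UMIs, 500 or more UMIs and 200 or more genes. Doublets were called with Scrublet in Scanpy 1.11.5 and removed (3.16% to 8.52% of barcodes). The cells of all libraries were clustered with the Leiden method at resolution 1 on 2000 variable genes and 30 principal components, leaving out the lipid genes, and clusters were named from marker lists. UMIs were summed per class and library and divided by the class total. Ratios carry exact conditional binomial intervals and levels exact Poisson intervals. UMIs of 1 cell share its capture, so these intervals cover counting error only. The method was tested on simulated data for 12 comparisons of 8205 to 9718 genes each, of which 200 were changed. Intervals held the simulated ratio for 95.3% to 96.0% of genes, 100% of 4-fold changes passed 2-fold, and at most 0.662% of unchanged genes did. Both sides were drawn as Poisson counts around a shared mean per gene, which is the model the intervals assume. These shares were thus largely fixed by the design and do not cover differences between libraries, cell make-up or carry-over.

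Genes count as measured at a mean of at least 10 CPM. Every member is described, and members are given with values where a level reaches 50 CPM in 1 of the 2 sides and the ratio is at least 2-fold or the highest or lowest of its list. Genes of the other lipid lists are given by the same limits, at most 3 per direction and comparison. The members and lists were chosen with earlier results of these data known. Alternatives were at least 1000 UMIs, at most 10% mitochondrial UMIs, doublets kept, resolution 2, TMM scaling (edgeR 4.0.16), no filter on low members, and, chosen after seeing the data, subtraction of RNA of other classes and leaving out low-UMI clusters. Subtracted levels under 3 UMIs of the class were set to 3 UMIs. Promoter windows come from RefSeq (GRCm38.p6), and gene coordinates are those of GENCODE for GRCm38.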

Additional observations from a re-analysis of the deposited data

Results flagged for a closer look

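Abcg1 and Soat1 stood out because, at day 3, they stood at least 2-fold above sham in one class and below sham in another, with counting intervals on opposite sides of 0. The log2 ratio of Abcg1, an exporter of cholesterol, was 1.41 in microglia-like cells (interval 1.23 to 1.59) and -0.61 in oligodendrocyte-like cells (interval -0.96 to -0.27). The log2 ratio of Soat1, which esterifies cholesterol, was 1.40 in microglia-like cells (interval 1.24 to 1.57) and -0.81 in astrocyte-like cells (interval -0.91 to -0.71). With 1 library per group the difference between the classes was not tested for either gene.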

How the results depend on the processing

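Of the 32 list medians, those named here moved out of a reference range under an alternative, and the cause was not tested. That range runs from the median of the members' lower interval bounds to the median of their upper bounds. It is not a counting interval of the list median itself. In microglia-like cells the synthesis medians at days 1, 3, 7 and 14 (-0.14, -0.91, -0.91 and -1.59) became 0.81, 0.36, 0.64 and 0.65 with RNA of other classes subtracted, and 0.53, 0.14, 0.21 and -0.068 at the lower quartile of markers. Msmo1 there turned from -1.93 to 0.58 at day 7 and from -1.95 to 0.84 at day 14. TMM scaling moved the synthesis medians to -0.57 at day 7 and -0.95 at day 14, and the efflux and storage medians of days 3, 7 and 14 to 1.20, 1.56 and 1.75. Relative to the median of all genes, which lay at -0.06, -0.29, -0.31 and -0.51 in these cells, the synthesis medians were -0.08, -0.62, -0.60 and -1.08 and the efflux and storage medians 0.86, 1.15, 1.53 and 1.62. The day 1 efflux and storage median was 0.41 with every member counted, and that of day 3 was 0.77 at 1000 UMIs. In astrocyte-like cells the synthesis median of day 1 (-0.52) was -0.27 at 1000 UMIs, -0.32 under TMM and -0.24 at resolution 2, and that of day 3 (-1.22) was -0.95, -0.99 and -0.97. The astrocytic efflux and storage medians of days 1 and 3 were -0.13 and 0.20 under TMM. That of day 7 (0.62) was -0.0063 at 1000 UMIs, 0.43 at 10% mitochondrial UMIs, 0.86 with doublets kept, 0.80 under TMM, 0.23 at resolution 2, 0.44 with every member, 0.21 without low-UMI clusters and -0.86 with either subtraction. At the median of markers, Abcg1 and Lpl entered the subtracted value at the floor of 3 UMIs. For macrophage-like against microglia-like cells, TMM gave synthesis 0.17 and efflux and storage 0.44 at day 3 and efflux and storage 0.57 at day 7, and resolution 2 gave synthesis 0.15 and efflux and storage -0.070 at day 7. No paired analysis was possible because each group has 1 library. Sham is the shallowest library, and genes of few UMIs there, such as Ch25h and Pltp in microglia-like cells, have the widest intervals.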
